A study of Mus musculus with 14 samples.

Results

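The genes described here are 16 enzymes of glycolysis and 19 genes that the hypoxia-inducible factors (HIF) are known to induce. They were taken by gene symbol from the 41934 genes listed in tables of fetal mouse brain RNA at embryonic days E13.5 and E18.5. All 35 symbols were found. A second entry carried the symbol Aldoa, with a mean normalized count of 48.6 at E13.5 and 30.5 at E18.5, and the entry with the higher count was used. The rule takes genes by name alone, but the list of names was drawn up with earlier results of these data known.

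The study compared whole brains of male Dio3-/- fetuses with those of Dio3+/+ littermates, all on a C57BL/6J background and from crosses between Dio3+/- parents. The type 3 deiodinase, encoded by Dio3, inactivates thyroid hormones, and the Dio3-/- fetuses carry point mutations that leave the mRNA in place but make no active enzyme. Each library came from a single fetus. At E13.5 the Dio3+/+ group had 4 libraries and the Dio3-/- group 2, while at E18.5 the groups had 3 and 5. The comparisons ask how the lack of the enzyme in every cell of the fetus affects gene expression in the brain at each age. The deposited tables give, for each gene and age, a mean normalized count over all libraries and the log2 fold change (Dio3-/- over Dio3+/+) with a standard error (SE), and no value for a single library. Variation among fetuses therefore enters only through the SE of the authors' fit, which does not give the spread of each group. Neither the depth of a library nor an overlap between groups can be given.

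Glycolysis splits glucose into pyruvate in a chain of enzymes, and lactate dehydrogenase can then turn pyruvate into lactate. Most steps have several isozymes encoded by separate genes, and neurons, glia and dividing progenitors use different ones. The HIF transcription factors are broken down in the presence of oxygen after prolyl hydroxylases mark them, and when stable they induce genes of glycolysis, glucose uptake, vessel growth and mitochondrial clearance, so several of the enzymes are themselves HIF targets.

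Of 5 genes known to respond to thyroid hormone, 1 was called higher at E13.5 and 5 at E18.5. The shares of all genes called higher were 1.24% and 0.96%. Klf9, a transcription factor gene induced by the hormone, was higher in Dio3-/- brains by 0.76 ± 0.19 (log2 fold change ± SE) at E13.5 and by 1.52 ± 0.07 at E18.5, with adjusted p-values of 0.00319 and 2.57e-111 from the Wald statistic. In the deposited values Dio3 mRNA fell by 0.89 at E13.5 and rose by 1.10 at E18.5 on the log2 scale. The paper reports higher Dio3 mRNA in Dio3-/- brains at E13.5 by real-time PCR, with female samples added. Since the mutation keeps the mRNA, Dio3 does not check the genotype labels. The adjusted p-values here and below come from the Wald statistic of the authors' fit, adjusted by Benjamini-Hochberg over all genes kept by a filter on low counts, and a gene is called changed at an adjusted p under 0.05.

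Markers of brain regions and of cartilage also differed between the genotypes at E13.5. All 8 markers of the telencephalon were lower in the Dio3-/- libraries, with a median log2 fold change of -1.78, and all 8 were called. Of 6 Hox genes of hindbrain and spinal cord all were higher, with a median of 3.17, and 3 were called, while 6 of the 7 measured cartilage markers were called higher. Over all genes at E13.5, 1.24% were called higher and 2.32% lower. At E18.5 none of the 8 telencephalon, 6 hindbrain or 8 cartilage markers was called by the Wald statistic, and 2, 0 and 3 of them had an unadjusted p under 0.05. The regional makeup and the genotype cannot be told apart at E13.5, and its part in the values of the glycolytic genes was not tested. In bulk tissue, moreover, fewer cells of a type cannot be told apart from less RNA per cell.

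At E18.5 the glycolytic pathway and the HIF targets lay above the Dio3+/+ level nearly throughout, by small amounts. Of the 35 genes 34 passed the filter on low counts, and 8 of them were called higher and 0 lower: the enzymes Pfkl, Aldoa, Tpi1, Eno1 and Ldha, and the HIF targets Vegfa, Pdk1 and Adm. Over all 17607 genes kept, 1.37% were called in either direction, 0.96% higher and 0.415% lower. At an unadjusted p under 0.05, 20 of the 34 genes were higher and 0 lower, beside 4.42% and 3.61% of all genes. Estimates above 0 were held by 31 of the 34 genes, beside 50.9% of all genes. The median log2 fold change was 0.14 over the 16 enzymes and 0.11 over the 18 HIF targets kept, beside 0.00 over all genes with a mean of at least 10 normalized counts. The 34 genes kept had mean normalized counts from 76.2 to 9583, and Car9 was removed with 6.16.

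**Figure D1:**
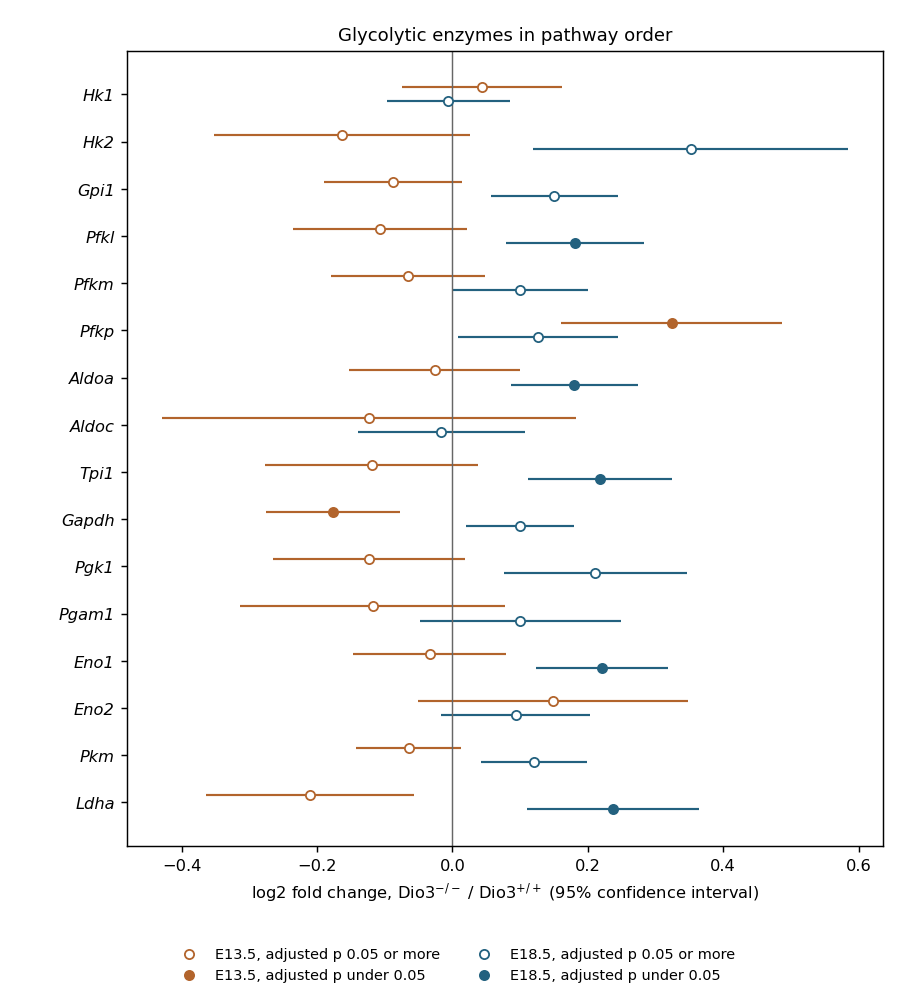
Log2 fold change of Dio3-/- against Dio3+/+ brains for the 16 glycolytic enzymes in pathway order, at E13.5 (4 Dio3+/+ and 2 Dio3-/- fetuses) and E18.5 (3 and 5). Points are the deposited estimates and lines their 95% confidence intervals, filled points have an adjusted p under 0.05, and 14 of the 16 E18.5 points but 3 of the 16 E13.5 points lie to the right of 0.

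Along the pathway at E18.5, the first step showed the widest gap between isozymes. Hexokinase traps glucose in the cell as glucose-6-phosphate. Hk1, the main brain hexokinase, had a log2 fold change of -0.01 ± 0.05, with a 95% confidence interval of -0.10 to 0.09. Hk2, an inducible isozyme of growing cells, had an estimate of 0.35 ± 0.12, an unadjusted p of 0.00308 and an adjusted p of 0.143. Hk2 was thus not called, although its estimate was the largest among the enzymes. Whether Hk1 and Hk2 differed from each other was not tested, because values of the single fetuses would be needed.

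Glucose-6-phosphate isomerase, encoded by Gpi1, passes the sugar on to phosphofructokinase, the step that commits it to glycolysis. Gpi1 had a log2 fold change of 0.15 ± 0.05 with an adjusted p of 0.0917. Of the 3 phosphofructokinase genes, the liver-type Pfkl rose by 0.18 ± 0.05 (mean normalized count 2275, adjusted p = 0.0415 by the Wald statistic). The muscle-type Pfkm and the platelet-type Pfkp had estimates of 0.10 ± 0.05 and 0.13 ± 0.06, neither of which was called. All 3 estimates thus lay above 0, and only that of Pfkl passed the test.

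Aldolase splits the sugar into 2 triose phosphates, which triosephosphate isomerase interconverts. Aldoa rose by 0.18 ± 0.05, which is 13.3% (95% confidence interval 6.20% to 20.9%), with an adjusted p of 0.0163. Aldoc, the brain isozyme found in astrocytes and Purkinje cells, had an estimate of -0.02 ± 0.06. Tpi1 rose by 0.22 ± 0.05 or 16.3% (8.05% to 25.2%), with an adjusted p of 0.00752. Aldoa and Tpi1 were therefore called and Aldoc was not.

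The steps from glyceraldehyde-3-phosphate to phosphoenolpyruvate showed 1 called gene, Eno1. Gapdh, whose enzyme oxidizes glyceraldehyde-3-phosphate, had an estimate of 0.10 ± 0.04 with an unadjusted p of 0.0143 and an adjusted p of 0.353. Pgk1 and Pgam1, for phosphoglycerate kinase and mutase, had estimates of 0.21 ± 0.07 and 0.10 ± 0.08, and adjusted p-values of 0.116 and 0.883. Eno1, the widely expressed enolase, rose by 0.22 ± 0.05, or 16.6% (8.92% to 24.7%), with an adjusted p of 0.00155, the smallest among the enzymes. Eno2, the neuronal enolase and a common neuron marker, had an estimate of 0.09 ± 0.06 and was not called.

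The last steps also lay above 0. Pkm, which makes pyruvate and ATP, had an estimate of 0.12 ± 0.04 and an adjusted p of 0.132. Ldha, whose product favors the conversion of pyruvate to lactate, rose by 0.24 ± 0.06, or 17.9% (7.95% to 28.7%), with an adjusted p of 0.0235. Each of the 5 called enzyme genes thus changed by between 13.3% and 17.9%. They catalyze separate steps and lie at chr10:77986947-78010083 (Pfkl), chr7:126795234-126800751 (Aldoa), chr6:124810586-124814296 (Tpi1), chr4:150236721-150248879 (Eno1) and chr7:46841475-46855627 (Ldha) of the GRCm38 build.

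**Figure D2:**
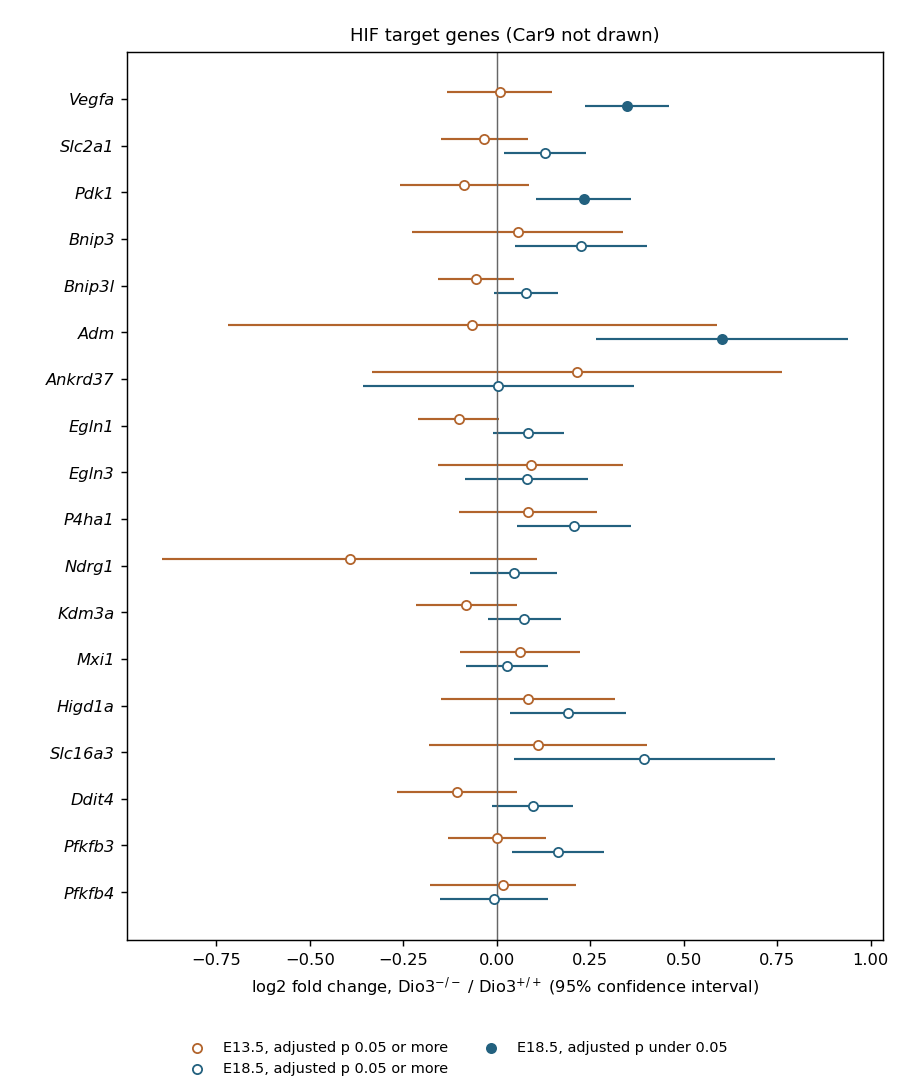
Log2 fold change of Dio3-/- against Dio3+/+ brains for 18 HIF target genes at E13.5 and E18.5, with 95% confidence intervals. Filled points have an adjusted p under 0.05, and Vegfa, Pdk1 and Adm at E18.5 are the filled points.

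Among the HIF targets at E18.5, 2 of the 3 called genes act on vessel growth and tone. Vegfa encodes the main growth factor of vessels. It rose by 0.35 ± 0.06, or 27.3% (95% confidence interval 17.8% to 37.7%), at a mean normalized count of 2217, with an adjusted p of 7.34e-07 by the Wald statistic. Adm encodes adrenomedullin, a peptide that widens vessels, and rose by 0.60 ± 0.17 or 51.8% (20.1% to 91.8%), with an adjusted p of 0.0391. The mean normalized count of Adm was only 92.3, and its interval was the widest among the called genes. Vegfa (chr17:46016993-46032369) was called under more of the alternative settings than Adm (chr7:110627661-110629820).

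The targets that handle glucose, pyruvate and lactate included 1 called gene. Slc2a1, the glucose transporter of the blood-brain barrier, had an estimate of 0.13 ± 0.06 with an adjusted p of 0.442. Pdk1, a kinase that shuts the pyruvate dehydrogenase complex, rose by 0.23 ± 0.06 or 17.4% (7.58% to 28.2%), with an adjusted p of 0.0289. Slc16a3, a lactate exporter, had an estimate of 0.39 ± 0.18 with an adjusted p of 0.479. Pdk1 lies at chr2:71873224-71903858.

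The 2 regulators of phosphofructokinase in the list, which set its activator fructose-2,6-bisphosphate, had unlike estimates. Pfkfb3 stood at 0.16 ± 0.06 with an unadjusted p of 0.00866, and Pfkfb4 at -0.01 ± 0.07. Neither was called, and the difference between them was not tested.

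The remaining HIF targets were not called. Bnip3 and Bnip3l, which mark mitochondria for clearance, had estimates of 0.22 ± 0.09 and 0.08 ± 0.04, and Higd1a, a mitochondrial protein of the respiratory chain, one of 0.19 ± 0.08. The oxygen sensors Egln1 and Egln3, prolyl hydroxylases that HIF itself induces, had estimates of 0.08 ± 0.05 and 0.08 ± 0.08. Of these 5 genes, Bnip3 and Higd1a had an unadjusted p under 0.05, with 0.0127 and 0.0156. P4ha1, a collagen prolyl hydroxylase, stood at 0.20 ± 0.08 (unadjusted p = 0.0084 by the Wald statistic), and the histone demethylase Kdm3a at 0.07 ± 0.05. Ndrg1, Mxi1, Ddit4 and Ankrd37 had estimates of 0.04 ± 0.06, 0.03 ± 0.06, 0.10 ± 0.06 and 0.00 ± 0.18. Ddit4 encodes an inhibitor of the growth kinase mTORC1 and Mxi1 an antagonist of Myc. Car9, a carbonic anhydrase that is strongly induced by hypoxia, was near the limit of detection at both ages, with mean normalized counts of 6.43 and 6.16. Its interval at E18.5 ran from -1.18 to 1.24 on the log2 scale, so a change of either sign was not detectable at this depth.

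**Figure D3:**
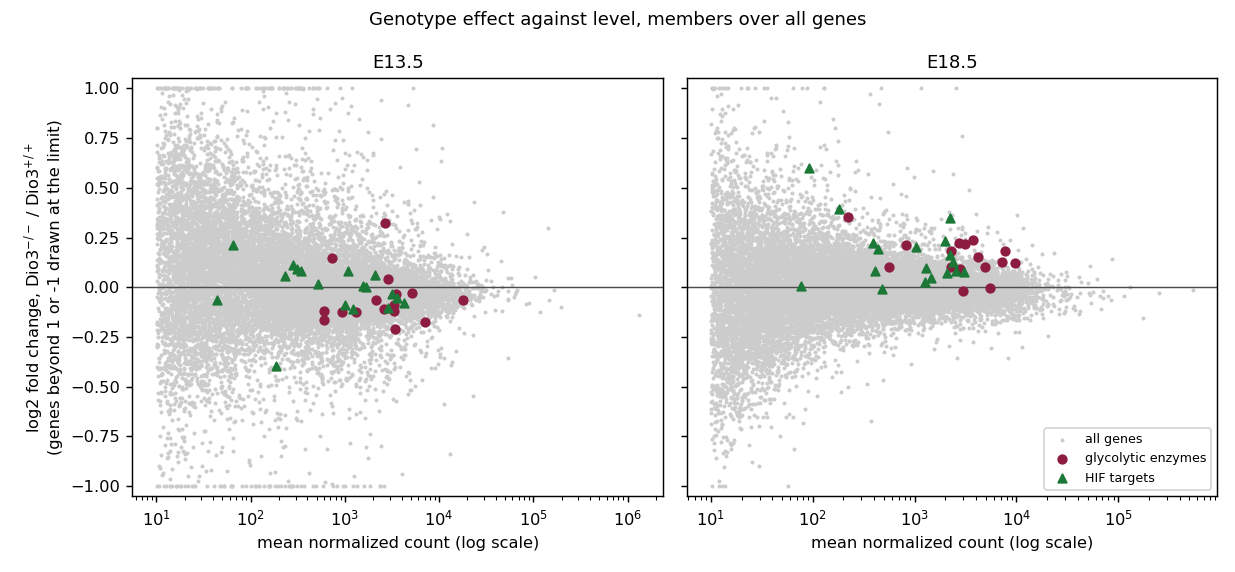
Log2 fold change of Dio3-/- against Dio3+/+ brains over the mean normalized count (log scale) for all 17793 genes with a mean of at least 10 at both ages, with the glycolytic enzymes and HIF targets marked. At E18.5, 31 of the 34 marked genes lie above 0, and at E13.5, 12 of 34 do.

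The calls at E18.5 depended on 2 settings in particular. With no filter on low counts 5 of the 8 genes passed (Aldoa, Tpi1, Eno1, Ldha and Vegfa), and with a t distribution in place of the normal one 0 passed, and 1 of all genes did. Adm also lost its call when the spread of the statistic was rescaled (adjusted p = 0.0515) or the trend with GC content and length was removed (0.0785), and Pfkl with the rescaled spread (0.0545).

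At E13.5 the enzymes stood mostly on the other side of the Dio3+/+ level. The median log2 fold change over the 16 enzymes was -0.10, beside -0.01 over all genes with a mean of at least 10 normalized counts. Of the enzymes 3 of 16 were above 0, where 46.7% of all genes were. With fold changes centered on genes of like level, the enzyme median was -0.06 and 4 of 16 were above 0. Gapdh was called lower and Pfkp higher. Over all 16436 genes kept, 3.56% were called, 1.24% higher and 2.32% lower. Of the 18 HIF targets kept, 9 lay on each side of 0 with a median of 0.00. None of these targets was called by the Wald statistic, and 0 had an unadjusted p under 0.05. Of the enzymes 1 was higher at that unadjusted threshold (Pfkp) and 2 were lower (Gapdh and Ldha), beside 5.02% and 6.96% of all genes.

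Pfkp rose by 0.32 ± 0.08 or 25.1% (95% confidence interval 11.7% to 40.2%), with an adjusted p of 0.00615. Pfkp overlaps exons of Pitrm1 on the other strand over 5.58% of its exon length, and reads were counted without strand. The effect of this overlap on the Pfkp count was not tested. Gapdh fell by 0.18 on the log2 scale (SE 0.05), a change of -11.5% (-17.4% to -5.23%), with an adjusted p of 0.0192. Ldha had the lowest estimate, -0.21 ± 0.08, with an unadjusted p of 0.00716 and an adjusted p of 0.136. The other isozymes of phosphofructokinase did not share the direction of Pfkp: Pfkl stood at -0.11 ± 0.07 and Pfkm at -0.07 ± 0.06, without a call. With 2 Dio3-/- libraries the SE was larger than at E18.5, with a median of 0.07 against 0.05 over the enzymes. With a t distribution 0 genes of any kind were called at E13.5, and Gapdh lost its call when the statistic was rescaled to its central spread (adjusted p = 0.0822) or centered on genes of like level (0.116).

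Gapdh was also one of the control genes of the study's real-time PCR. The paper reports no significant difference between genotypes in its control genes. The primers, given here to show which mRNA they read, were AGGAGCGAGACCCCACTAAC and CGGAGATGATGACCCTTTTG, and both were found in 8 of the 13 annotated Gapdh transcripts. The Vegfa primers, AAAGGCTTCAGTGTGGTCTGAGAG and GGTTGGAACCGGCATCTTTATC, were both found in 2 of 13 Vegfa transcripts, with a product of 184 bases. The sequencing counts, by contrast, cover all exons of each gene. By real-time PCR the paper reports up-regulation of Vegfa at E18.5, with further male and female samples added to the sequenced ones.

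Between the ages, the genotype effect on the enzymes differed in 1 direction. The log2 fold change at E18.5 minus that at E13.5 was above 0 for 13 of 16 enzymes and 14 of 18 HIF targets, beside 51.8% of all genes. It was called for 8 enzymes and 1 HIF target, each higher at E18.5, while 1.95% of 17793 genes were called in either direction and 1.39% were called higher at E18.5. At an unadjusted p under 0.05, 11 enzymes and 6 HIF targets were higher at E18.5 and 0 lower, beside 5.97% of all genes that were higher. Estimates were below 0 at the earlier age and above 0 at the later one for 12 of 16 enzymes (75%) and 9 of 18 HIF targets (50%), beside 27.3% of all genes.

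**Figure D4:**
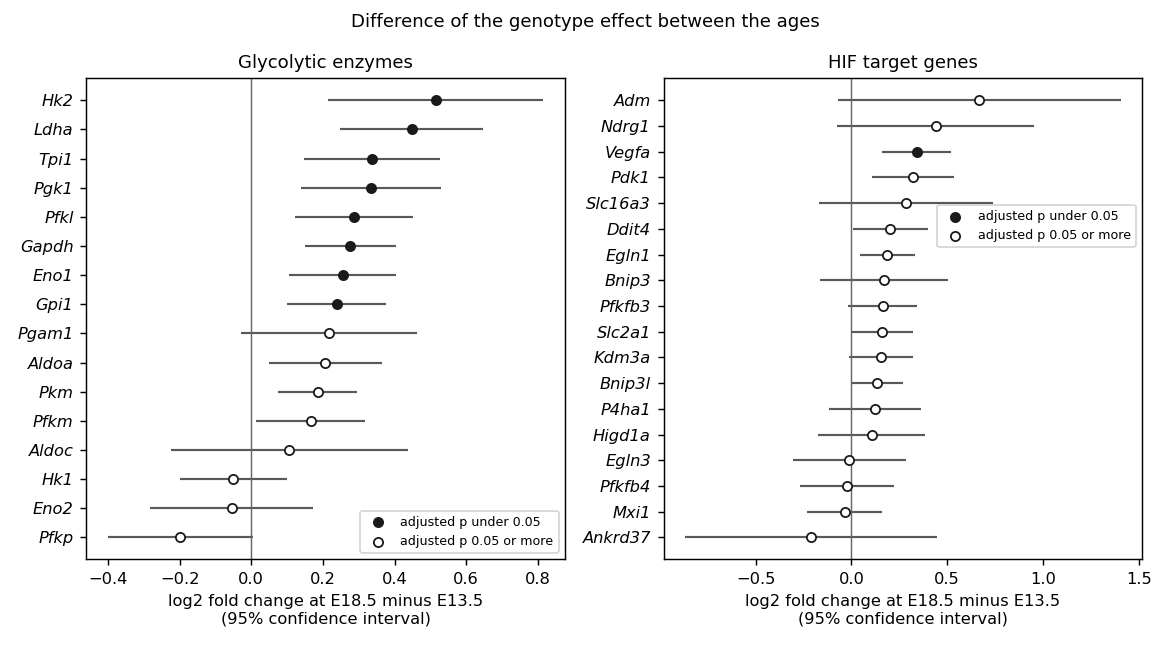
Difference between the ages in the log2 fold change of Dio3-/- against Dio3+/+ brains (E18.5 minus E13.5) with its 95% confidence interval, for enzymes on the left and HIF targets on the right. Filled points have an adjusted p under 0.05, and they are Hk2, Ldha, Tpi1, Pgk1, Pfkl, Gapdh, Eno1 and Gpi1 on the left and Vegfa on the right.

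Ldha and Gapdh had the smallest p-values of the difference. The estimate for Ldha moved from -0.21 at E13.5 to 0.24 at E18.5, a difference of 0.45 ± 0.10 with an adjusted p of 0.00175 by the Wald statistic. That for Gapdh moved from -0.18 to 0.10, a difference of 0.28 ± 0.06 with an adjusted p of 0.00297. For Hk2 the difference was 0.51 ± 0.15, from -0.16 to 0.35, although Hk2 was not called at either age. For Vegfa the estimate was 0.01 ± 0.07 at E13.5, and the difference was 0.34 ± 0.09 (adjusted p = 0.0158 by the Wald statistic). The E13.5 estimate of Eno1, at -0.03 ± 0.06, was also near 0.

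Tpi1, Pgk1, Pfkl, Eno1 and Gpi1 had differences of 0.34 ± 0.10, 0.33 ± 0.10, 0.29 ± 0.08, 0.25 ± 0.08 and 0.24 ± 0.07, with adjusted p-values from 0.0309 to 0.044. Pkm missed the threshold with 0.19 ± 0.06 and an adjusted p of 0.0523. Pdk1 and Adm, both called at E18.5, had differences of 0.32 ± 0.11 and 0.67 ± 0.38 that were not called. Hk1, Pfkp and Eno2 were the enzymes with a difference below 0, at -0.05 ± 0.08, -0.20 ± 0.10 and -0.05 ± 0.12, and none of them was called. The number of calls was sensitive to the processing: 3 genes (Gapdh, Ldha and Vegfa) were called when fold changes were centered on genes of like level, 2 (Gapdh and Ldha) with the spread rescaled, and 0 with a t distribution. The ages also differ in the tissue markers described above, and age and tissue makeup cannot be told apart in this difference.

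The shares of isozyme mRNAs within a step differed between the ages. Levels were compared as mean normalized counts per kb of exon, over all libraries of an age, with no spread available and no test. Hk1 made up 77.1% of the 2 hexokinases at E13.5 and 94.6% at E18.5, so that Hk2, the isozyme with the largest estimate at E18.5, was then the minor form at 5.43%. Among the phosphofructokinases Pfkm held 52.3% and 43.8%, Pfkl 31.7% and 21.7%, and Pfkp 16.0% and 34.6%. Pfkl, the called gene at E18.5, was thus the lowest of the 3 at that age, and Pfkp, the called gene at E13.5, the lowest at that age.

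**Figure D5:**
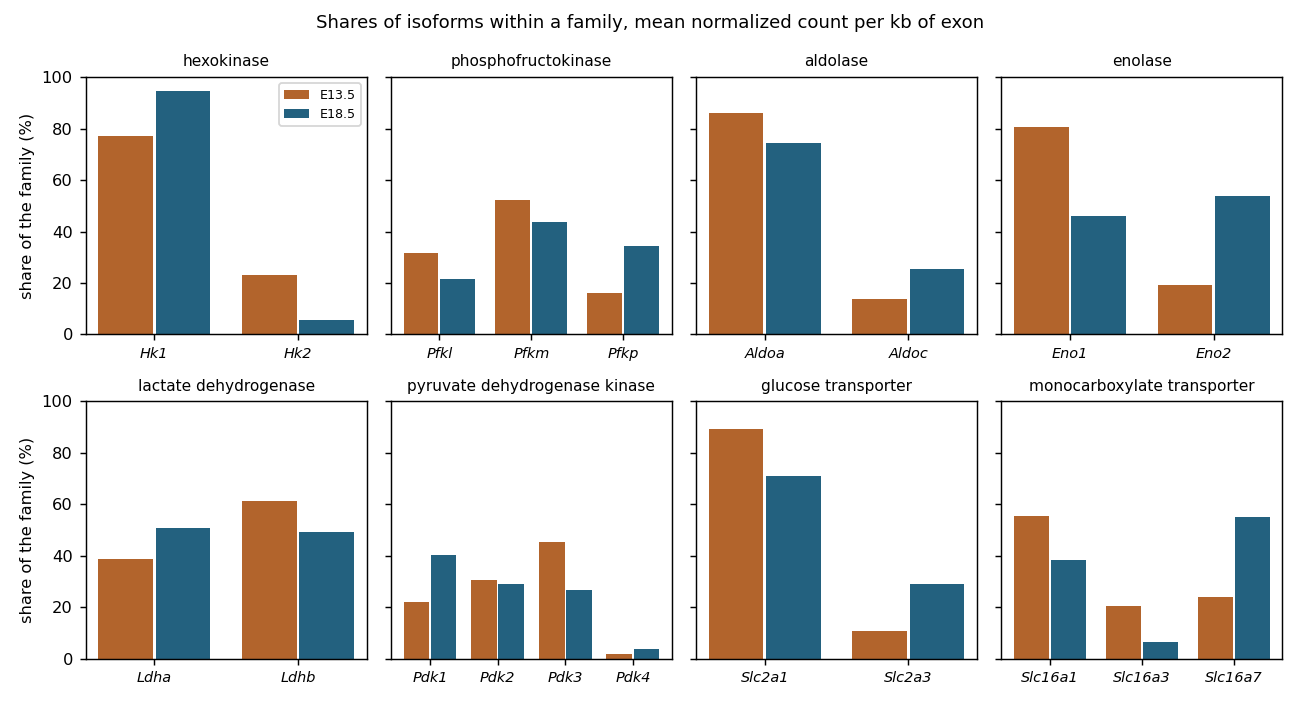
Share of each gene in its isozyme or transporter family (percent of the summed mean normalized count per kb of exon) at E13.5 and E18.5, over all libraries of the age. Bars start at 0 and have no error because single libraries were not given, and Eno1 falls from 80.7% to 46.2% while Eno2 goes from 19.3% to 53.8%.

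Aldoa held 86.0% of the 2 aldolases at E13.5 and 74.5% at E18.5. Eno1 held 80.7% and 46.2% of the 2 enolases. The order of Eno1 and Eno2 at E18.5 depended on the gene length used: with the longest transcript in place of all exons Eno1 held 57.5%. Ldha held 38.7% and 50.7% of the sum with Ldhb, the isozyme that favors the reverse reaction, and 48.9% and 60.9% with the longest transcript. Among the pyruvate dehydrogenase kinases, Pdk1 held 22.1% at E13.5 and, with 40.4%, the largest share at E18.5. Slc2a1 held 89.4% and 71.0% of the sum with the neuronal glucose transporter Slc2a3, and Slc16a3 only 20.6% and 6.46% of 3 lactate carriers. Per kb, Pkm was the most abundant enzyme mRNA at E13.5 with 3569, and Aldoa at E18.5 with 2675, followed by Pkm with 1916. The ages were normalized separately, so the shares rather than the levels can be set side by side.

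Some of the genes share exon bases with other genes, and the effect of this on their counts was not tested. Exons of other genes cover 26.4% of the exon length of Ankrd37, 22.5% of Higd1a, 22.3% of Bnip3, 15.3% of Pkm, 11.5% of Gpi1 and 10.7% of Pfkm. Gapdh, Eno1, Pgk1, Pgam1, Tpi1, Aldoa, Pkm and Ldha have many processed pseudogenes or near copies in the mouse genome. How such copies affected the counts was not tested.

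Promoters were searched for the core of the HIF binding site, written ACGTG, or GCGTG with the other purine first, and for AGGTCA, the half-site of thyroid hormone receptors, on both strands of the 250 bases before the RefSeq start sites (GRCm38.p6). Windows were found for 33 of the 35 genes. ACGTG was present in 16 of 33 windows (48.5%), beside 16.6% of 32851 windows of all genes, and GCGTG in 19 (57.6%), beside 28.2%. The windows of the 33 genes had a median GC content of 60% against 52.4% over all windows. Of all windows with at least 60% GC, ACGTG was held by 23.0%, and the form GCGTG by 53.9%. AGGTCA was present in 2 windows (6.06%), those of Eno1 and Higd1a, beside 14.0% of all windows. Its share was 8.24% in windows with at least 60% GC and 16.3% in those with less.

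The HIF targets held ACGTG in 11 of 17 windows (64.7%) and the enzymes in 5 of 16. Of the 8 genes called at E18.5 only Ldha held ACGTG, while 15 of the 25 others did. GCGTG was held by 4 of the 8 and by 15 of the 25. Either core was held by 5 of the 8 (62.5%) and 21 of the 25 (84%). Among all windows with at least 60% GC, 63.8% held either core. A match of letters does not show binding, and the absence of one says only that the letters are not in this window. The 6 called genes with the smallest p-values are printed here so that the letters around these cores can be seen. Capitals mark the cores on either strand, each window is written 5′ to 3′ along the gene and ends at the base before the start site, and CACGTG holds ACGTG on both strands.
Vegfa (chr17:46032378-46032627, - strand): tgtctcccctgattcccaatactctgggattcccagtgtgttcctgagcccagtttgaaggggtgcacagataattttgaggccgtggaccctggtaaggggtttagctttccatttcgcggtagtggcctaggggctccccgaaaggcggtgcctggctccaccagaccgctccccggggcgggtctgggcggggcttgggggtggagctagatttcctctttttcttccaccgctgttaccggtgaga
Eno1 (chr4:150236458-150236707, + strand): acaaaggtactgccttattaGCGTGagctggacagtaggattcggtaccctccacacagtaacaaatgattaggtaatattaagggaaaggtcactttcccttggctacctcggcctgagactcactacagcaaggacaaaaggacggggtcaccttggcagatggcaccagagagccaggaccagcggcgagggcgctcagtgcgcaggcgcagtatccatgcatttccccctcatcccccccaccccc
Tpi1 (chr6:124814159-124814408, - strand): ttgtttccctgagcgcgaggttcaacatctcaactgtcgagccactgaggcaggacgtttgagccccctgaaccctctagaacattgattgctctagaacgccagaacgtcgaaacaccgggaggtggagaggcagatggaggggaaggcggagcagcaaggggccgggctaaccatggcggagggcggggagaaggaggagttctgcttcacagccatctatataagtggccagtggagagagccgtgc
Aldoa (chr7:126800448-126800697, - strand): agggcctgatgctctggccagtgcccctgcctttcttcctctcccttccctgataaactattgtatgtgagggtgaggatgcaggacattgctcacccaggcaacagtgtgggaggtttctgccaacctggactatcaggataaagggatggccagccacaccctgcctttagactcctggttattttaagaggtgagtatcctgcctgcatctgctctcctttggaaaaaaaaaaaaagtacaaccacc
Ldha (chr7:46845554-46845803, + strand): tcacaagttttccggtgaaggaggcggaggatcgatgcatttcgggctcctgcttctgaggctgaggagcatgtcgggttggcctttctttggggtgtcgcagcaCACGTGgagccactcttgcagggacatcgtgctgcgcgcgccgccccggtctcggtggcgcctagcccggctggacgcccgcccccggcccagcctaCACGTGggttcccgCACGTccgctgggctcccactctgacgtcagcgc
Pdk1 (chr2:71872974-71873223, + strand): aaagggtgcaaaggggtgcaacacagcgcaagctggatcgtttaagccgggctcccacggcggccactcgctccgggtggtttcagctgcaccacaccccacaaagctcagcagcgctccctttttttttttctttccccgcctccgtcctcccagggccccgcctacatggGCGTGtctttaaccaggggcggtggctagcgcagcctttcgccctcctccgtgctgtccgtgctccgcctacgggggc
The Ldha window held 5 matches, at -145, -144, -48, -47 and -34 from the start site, of which the first 4 are the 2 copies of CACGTG. Eno1 held GCGTG at -230 and Pdk1 at -78. Vegfa, Tpi1 and Aldoa held neither core here. RefSeq and GENCODE do not place every start alike. The start behind the Vegfa window lies 1021 bases from the one that GENCODE lists as principal, and those of Eno1, Tpi1 and Ldha lie 244, 138 and 35 bases from it, while that of Higd1a lies 566 bases away. Positions are therefore counted from the RefSeq start only.

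The genes around the pathway were taken from further lists. Of 13 genes for HIF subunits and oxygen sensors, 2 were called at E18.5 and both were lower, beside 0.415% of all genes called lower: Hif3a, whose product can restrain the other HIFs, fell by 0.30 (SE 0.07, adjusted p = 0.00155), and Arnt2, the neuronal partner subunit, fell by 0.12 (SE 0.03, adjusted p = 0.0296). Hif1a and Epas1, the oxygen-regulated subunits, had estimates of 0.01 ± 0.04 and 0.07 ± 0.06. Regulation of these subunits acts largely on the protein, which was not measured. None of the 13 was called at E13.5 by the Wald statistic, with 1 at an unadjusted p under 0.05.

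Of 23 further HIF targets, 4 were called higher and 0 lower at E18.5, beside 0.96% of all genes called higher. Hmox1, which breaks down heme, rose by 0.51 ± 0.15, and Bhlhe40, a transcriptional repressor of the circadian clock, by 0.38 ± 0.09. Lox, which cross-links collagen, rose by 0.34 ± 0.07, and Flt1, a receptor for the Vegfa protein, by 0.34 ± 0.07. Their adjusted p-values were 0.0451, 0.00185, 0.000588 and 0.000883. At E13.5 the Wald statistic called 0 of the 23, and the unadjusted p of 2 was under 0.05.

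The other genes of carbohydrate use were not called at E18.5 by the Wald statistic. Of 6 further carriers of glucose, lactate and pyruvate, 0 were called and 4 were higher at an unadjusted p under 0.05, among them the lactate transporters Slc16a7 with 0.15 ± 0.06 and Slc16a1 with 0.15 ± 0.07. Of 10 genes of the pyruvate dehydrogenase complex and its regulators 0 were called and 1, the subunit gene Pdha1, had an unadjusted p under 0.05. Of 14 measured isozymes outside the main list, Ldhb among them with 0.05 ± 0.05, and of 8 genes of gluconeogenesis and glycogen, 0 were called and 0 had an unadjusted p under 0.05. In the E13.5 table these 4 lists had 0 calls by the Wald statistic, and Pfkfb2 alone had an unadjusted p under 0.05.

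Markers of other cells moved at E18.5 beside the called genes, where 0.96% of all genes were called higher and 0.415% lower. Of 10 endothelial markers 2 were called higher, Flt1 and Ly6c1 (0.66 ± 0.16), while the defining markers Pecam1 and Cldn5 had estimates of 0.04 ± 0.08 and -0.07 ± 0.06. The pericyte gene Rgs5 rose by 0.29 ± 0.04 and the leptomeningeal genes Dcn and Ptgds by 0.35 ± 0.07 and 0.30 ± 0.06, with 1 of 6 and 2 of 8 markers called. Gfap of astrocytes rose by 0.45 ± 0.09, the only call among 10 markers of radial glia and astrocytes. The hemoglobin genes Hba-a1 and Hbb-bt of red blood cells fell by 0.38 and 0.47 on the log2 scale, as the only calls among 7 measured erythroid markers. Of 8 neuron markers 0 were called by the Wald statistic and 2 had an unadjusted p under 0.05, and of 7 microglial markers 0 and 1. All 7 microglial markers lay above 0, with a median log2 fold change of 0.15. Of the 8 neuron markers 5 lay above 0, with a median of 0.02. The summed mean normalized counts were 203498 for the neuron list, 38602 for the glial, 8967 for the endothelial and 3918 for the erythroid list, and no defining marker of these was at 0. Their part in the changes of the glycolytic enzymes and HIF targets was not tested.

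In the E13.5 libraries 3 of the 9 measured markers of radial glia and astrocytes were called: Sox2 and Pax6 were lower with -0.34 ± 0.08 and -0.74 ± 0.09, and Aldh1l1 was higher with 0.43 ± 0.13. The median over the 9 was 0.04, with 6 above 0, and the progenitor gene Nes stood at 0.01 ± 0.05. Of 8 leptomeningeal markers 7 lay above 0, with a median of 0.50, and Dcn was called higher with 0.50 ± 0.14. Of 9 erythroid markers 4 were called lower, Hbb-bt with -0.65 ± 0.14 among them, beside 2.32% of all genes called lower. Of the endothelial and neuron lists 0 genes were called by the Wald statistic and 0 had an unadjusted p under 0.05. Of 7 microglial markers 6 lay above 0, with a median of 0.21, and 2 had an unadjusted p under 0.05 by that statistic. Choroid plexus markers lay below 0 in 5 of 6, with a median of -0.28. Neither of the microglial and choroid plexus lists held a call. The part of these cells in the values of Gapdh, Ldha and Pfkp was not tested.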

How the data were processed

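RNA of whole fetal brains was sequenced by the authors in 2 batches, depleted of ribosomal RNA by different kits. Per the submitters' processing notes and the study's methods, reads were trimmed (cutadapt 3.1), aligned to GRCm38 (STAR 2.5.3a), counted without strand on GENCODE genes (HTSeq), adjusted between batches (ComBat-seq) and compared within each age (DESeq2 1.30.1). The labels give no batch per sample, so within-batch values cannot be given. The deposited tables hold only the authors' own comparison, so values of a comparison were used here because nothing else was given. Per the file headers, the mean normalized count is a signal, the average that the authors took of all libraries of an age. Deposited fold changes and SEs use a log2 scale. As a score, the authors give the Wald statistic (fold change over SE), and the deposited p-value is two-sided. Depth per library is unknown, and the number of unused columns of per-sample values was 0. The study's samples are separate fetuses.

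Low counts were filtered again (cutoffs of 21.7 at E13.5 and 13.8 at E18.5, chosen among 50 quantiles) and p-values adjusted by Benjamini-Hochberg over the genes kept (Python 3.11.15, scipy 1.17.1, statsmodels 0.14.6). For the difference between ages, the SE was the square root of the sum of both squared SEs, and the ratio was compared with a normal distribution, over genes with a mean of at least 10 at both ages. Scripts were tested on simulated data. Gene positions, exon lengths and overlaps are from GENCODE M21 (GRCm38), a release older than the authors' VM22, in which 41897 genes and all 35 members were matched. The 35 genes and the other lists were chosen with earlier results of these data known, and 1 gene of the hindbrain list is not reported here. All 35 were described, and of other lists at most 4 called genes, besides defining markers and genes named with their list's counts. Alternatives were other filters, a t distribution with 4, 6 or 10 degrees of freedom, rescaling to the central spread, centering on the median or on a running median of 501 genes, removal of a trend of degree 3 with GC content and length, and the longest transcript for shares.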

Additional observations from a re-analysis of the deposited data

Results flagged for a closer look

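For 9 genes the effect of genotype differed between the ages by the test of the difference itself (E18.5 minus E13.5, log2 scale, Wald statistic, adjusted over 17793 genes). The differences were 0.51 for Hk2, 0.24 for Gpi1, 0.29 for Pfkl, 0.34 for Tpi1, 0.28 for Gapdh, 0.33 for Pgk1, 0.25 for Eno1, 0.45 for Ldha and 0.34 for Vegfa, each higher at E18.5. The 8 enzyme genes had estimates below 0 at E13.5 and above 0 at E18.5. The markers of telencephalon, hindbrain and cartilage differed between genotypes at E13.5, and their part in these differences was not tested.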

How the results depend on the processing

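At E18.5, 8 genes were called with the main settings, 5 with no filter on low counts, 0 with a t distribution, and 6 to 9 under the other 7 alternatives. At E13.5 the count was 2, and 0 with a t distribution, 1 with the rescaled spread, 1 with centering on the running median and 2 under the other alternatives. The difference between ages was called for 9 genes, and for 3 with no filter, 0 with a t distribution, 2 with the rescaled spread, 3 with the running median, 5 with the GC and length trend removed, 6 with centering on the median and 10 with a minimum mean of 100. A t distribution left 0 of all genes at E13.5, 1 at E18.5 and 9 for the difference. Only both centerings and the removal of the GC and length trend change an estimate, and under these every gene called at E18.5 or E13.5 kept its direction. Estimates near 0 changed sign: at E13.5 Pfkfb3 became 0.00505 with centering on the median, 0.0329 with the running median and 0.00399 with the GC trend removed, and Aldoa 0.00671 with the running median. At E18.5 Hk1 became 0.00698 with the running median and 0.00506 without the GC trend, and Ankrd37 -0.00592 and -0.0379. The cause of these changes was not tested. Over all genes at E13.5, 34.7% of calls were higher in the main setting and 44.4% with the running median. No paired analysis was possible because the deposited tables hold no values per library, and leaving out each replicate was not run for the same reason. The precision rests on 2 Dio3-/- libraries at E13.5 and 3 Dio3+/+ libraries at E18.5. In the paper's clustering, 1 Dio3+/+ sample at E18.5 fell among the Dio3-/- samples.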
